A study of Homo sapiens with 6 samples.

Results

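Integrins and the adaptor proteins of focal adhesions were read across 6 Affymetrix arrays labelled as MDA-MB-231, a mesenchymal-like human breast cancer cell line, or as a clone of it. The group comprises 40 genes, of which 24 encode integrin chains (16 alpha and 8 beta) and 16 encode adaptors and kinases that bind to them inside the cell. They were taken by name out of 19775 genes that at least 1 probe set of the array names alone. The choice was made with earlier results of these data known. Of the 40, 39 were named by such a probe set and 33 passed the filter on low signal and were tested.

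The parental group held 3 samples of MDA-MB-231 that had received no DNA. The other group held 3 samples of 231wCFry, a line that the labels describe as raised from MDA-MB-231 by transfection with a wild-type Fry cDNA of the Copenhagen rat, 10791 base pairs long, in a pEGFP-N1 plasmid. Fry encodes furry, a large scaffold protein that binds NDR kinases. Per the labels, the line was grown under puromycin and is a single stable clone, picked because its Fry level was comparable to that of MCF10A, a non-tumour mammary line. No clone carrying the plasmid without Fry was among the samples, so the effects of Fry, of selection, of picking 1 clone and of any difference in cell line between the groups cannot be told apart. Both lines were grown as monolayers in the same medium with serum and lysed at 70% confluence, and the labels do not say whether the 3 samples of a group came from separate cultures, so p-values measure the spread between these samples, which may be technical.

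Values are MAS5 signals on a linear scale, with the median of all probe sets between 10.4 and 12.1 on the 6 arrays. A signal was taken as not above background where each array of a group read at or below the highest unspiked bacterial control on it, which lay between 2.5 and 4.9. Correlations between arrays, on log2(signal + 16) over all probe sets, were 0.994 to 0.996 within a group and 0.921 to 0.924 between groups, and no array stood apart within its group. The ratio of 3′ to 5′ GAPDH signal, a sign of RNA quality, was 1.36 to 1.39 in the parental samples and 1.24 to 1.33 in the labelled clone, so the groups did not overlap. The human FRY probe set with the highest mean read 5.83 ± 0.961 and 3.97 ± 1.05 (SD, n = 3 each) and was not tested, and whether it detects the rat transcript was not examined. FRYL, the paralog of FRY, read 278 ± 13.5 and 107 ± 12.7.

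The samples labelled 231wCFry departed from the parental line on genes that mark cell identity. SOX10, a neural crest transcription factor, read between 0.2 and 0.8 on the parental arrays and between 1376.1 and 1419.6 on the others. Of the 7 measured members of a neural crest and melanocyte list, 6 were higher in the labelled clone and 0 lower, PMEL was not called, and the summed signal was 384.6 to 469.0 against 5005.3 to 5470.2. S100B, which is on that list as SOX10 is, rose from 0.700 ± 0.872 to 1770 ± 93.3. MLANA and TYR, also on it, were dim in the labelled clone, at 35.5 ± 25.2 and 25.5 ± 8.61. Of 7 epithelial genes 6 were lower, CDH1 was not called, and the summed signal was 8631.5 to 9269.2 against 1694.8 to 1856.5. KRT19, a luminal keratin, went from 1669 ± 43.5 to 1.10 ± 0.346, not above background. A list read for MDA-MB-231 joined VIM, CD44, EGFR and AXL to ESR1, PGR and ERBB2, and not all of these are typical for it. Of its 5 tested genes, CD44 was higher, AXL, EGFR and ERBB2 were lower and VIM was not called. Their summed signal was 10881.8 to 12098.2 against 9518.3 to 11776.0. These markers moved with every difference given here, and their part in those differences was not tested. Whether the samples labelled 231wCFry derive from MDA-MB-231 was not tested either, and every difference given here is one between these 2 sets of samples. In a bulk sample, fewer cells of a type and less RNA per cell cannot be told apart.

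Integrins are receptors made of 1 alpha and 1 beta chain, and the pairing sets which matrix protein or cell surface ligand is bound. Talins and kindlins bind the short beta chain tails and switch the receptor to its high-affinity state, while vinculin, the complex of integrin-linked kinase with parvin and PINCH, and the tensins tie it to actin. Focal adhesion kinase, paxillin and p130Cas pass signals inward from the same sites. Breast epithelial cells hold on to laminin chiefly through the alpha6-beta4 and alpha3-beta1 pairs and to collagen through alpha2-beta1.

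Part of the integrin chains differed between the labelled clone and the parental samples. Transcripts of ITGA4, ITGA9, ITGB3 and ITGB8 were far higher, those of ITGA2, ITGA3 and ITGB4 far lower, and ITGB1, the shared partner of most alpha chains, was not called. Among the adaptors, PARVB and TLN2 were higher and FERMT1 was lower. The RefSeq promoter table (build GRCh38.p14) held an entry for 28 of the 40 members and for 5 of the 10 members that the results turn on, with 6 start sites in all. The 250 bases before 5 of these starts, all on the plus strand, are printed because they precede the 3 members with the largest rises and the only fall among these members that the table holds. Capitals mark matches, on either strand, to GGGCGG (the core of the SP1 motif) or to ACAAAG or ACAATG (cores bound by SOX factors).
PARVB, upstream start, chr22:44024052-44024301: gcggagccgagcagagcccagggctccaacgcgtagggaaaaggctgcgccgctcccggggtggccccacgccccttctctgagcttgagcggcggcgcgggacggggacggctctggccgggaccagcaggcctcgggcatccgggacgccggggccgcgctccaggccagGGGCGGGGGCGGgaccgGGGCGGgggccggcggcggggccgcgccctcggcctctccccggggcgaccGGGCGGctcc
PARVB, downstream start, chr22:44068856-44069105: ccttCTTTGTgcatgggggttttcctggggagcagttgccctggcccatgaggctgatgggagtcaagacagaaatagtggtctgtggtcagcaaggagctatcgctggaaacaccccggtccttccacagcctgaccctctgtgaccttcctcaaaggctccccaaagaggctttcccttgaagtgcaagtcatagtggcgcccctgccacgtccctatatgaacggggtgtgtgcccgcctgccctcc
ITGA4, chr2:181457136-181457385: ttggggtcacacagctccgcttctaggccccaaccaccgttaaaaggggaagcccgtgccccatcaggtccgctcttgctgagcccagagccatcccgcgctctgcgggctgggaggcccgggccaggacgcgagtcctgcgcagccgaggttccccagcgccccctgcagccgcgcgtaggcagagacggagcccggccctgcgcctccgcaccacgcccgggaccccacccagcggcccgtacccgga
ITGB8, chr7:20330650-20330899: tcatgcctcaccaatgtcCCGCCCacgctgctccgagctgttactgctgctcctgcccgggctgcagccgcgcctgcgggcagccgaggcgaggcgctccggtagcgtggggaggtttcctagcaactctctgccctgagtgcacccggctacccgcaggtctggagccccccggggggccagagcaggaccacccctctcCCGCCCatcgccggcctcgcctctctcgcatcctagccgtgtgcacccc
ITGA2, chr5:52989102-52989351: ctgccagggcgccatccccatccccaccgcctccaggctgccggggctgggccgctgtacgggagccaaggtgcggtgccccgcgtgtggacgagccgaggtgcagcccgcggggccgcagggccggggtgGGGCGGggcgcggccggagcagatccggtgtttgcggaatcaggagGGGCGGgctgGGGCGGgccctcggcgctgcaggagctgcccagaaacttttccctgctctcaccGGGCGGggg

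The upstream PARVB window held 4 matches to GGGCGG and was 81.6% G or C, and the downstream one held 1 SOX match and was 58.4% G or C. ITGB8, which was higher in the labelled clone, had 2 GGGCGG matches, ITGA2, which was lower, had 4, and neither ITGA4 nor TLN2 had any of the motifs searched. The others were CACGTG or CATGTG (E-box), GGAATG (TEAD) and TGAGTCA (AP-1), with no match in these 6 windows, and no matches of different motifs overlapped. Over 35116 promoter windows of the same length, 42.6% held GGGCGG, 21.2% a SOX core, 15.2% an E-box, 11.9% the TEAD core and 4.20% the AP-1 site. The GGGCGG match was thus found before members that were higher and before a member that was lower. A match is a description of the letters, and the array does not say which PARVB start was used.

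By count, members were called about as often as other genes. Of the 33 tested, 11 were higher and 12 lower in the labelled clone and 10 were not called at an adjusted p under 0.05 (limma, Benjamini-Hochberg over all tested probe sets), which is 69.7% called. Each gene was counted by its brightest tested probe set. ITGA1, counted as higher, and PTK2, counted as lower, also had a probe set called the other way. Of all 13606 genes tested, 66.9% were called, 33.9% as higher and 32.9% as lower. Differences of at least 1 on the log2(signal + 16) scale were seen for 13 members (39.4%), 6 higher and 7 lower, against 23.0% of all genes. The samples of the groups did not overlap for 27 members (81.8%), against 73.0% of all genes. The median size of the log2 difference was 0.53 over the members and 0.47 over all genes, and the median signed difference was -0.11 and 0.0083. Of the 18 tested integrin chains, 9 differed by at least 1, and of the 15 tested adaptors, 4 did.

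**Figure D1:**
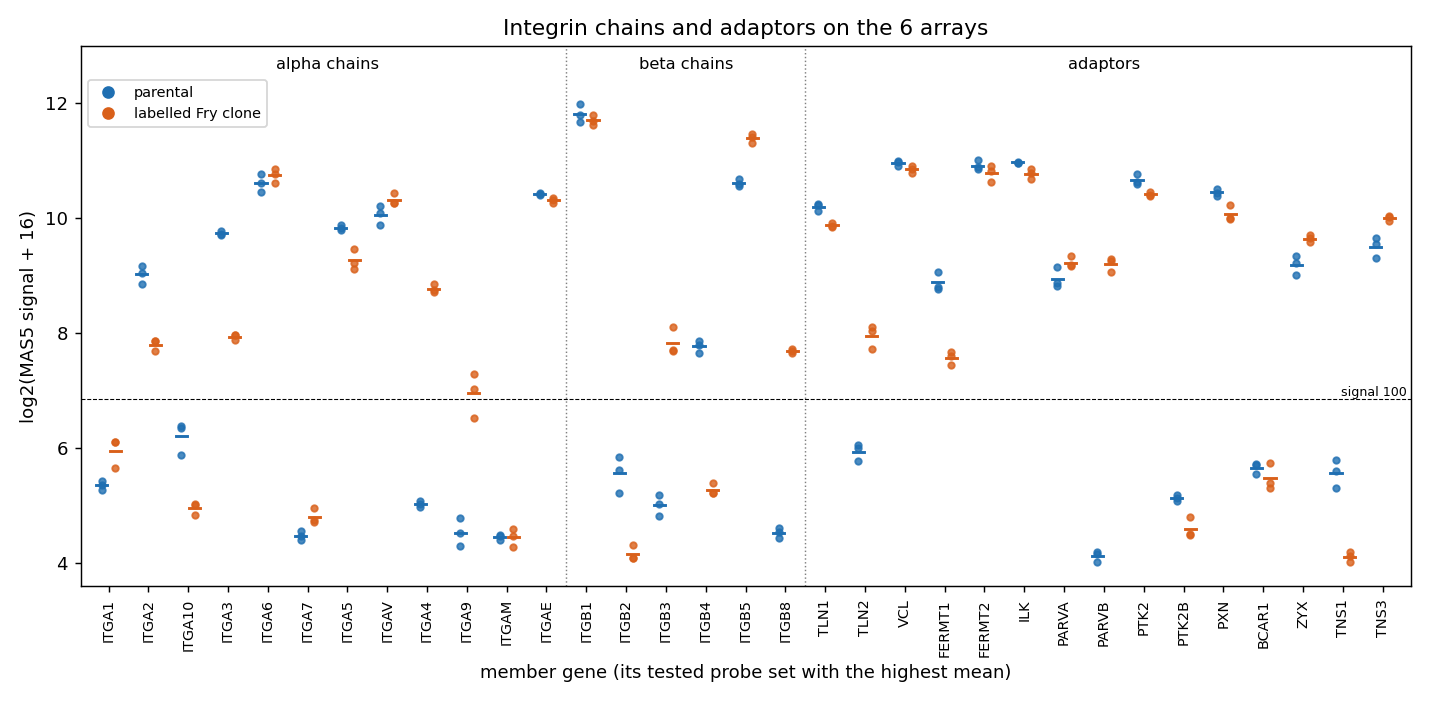
Signal of the 33 tested members on each array as log2(signal + 16), with the 3 parental samples in blue, the 3 samples labelled Fry clone in orange and a bar at each group's mean. The dashed line marks a signal of 100, and ITGA4, ITGB3, ITGB8, PARVB and TLN2 lie below it on every parental array and above it on every array of the labelled clone, while ITGB4 does the opposite.

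Of the collagen-binding alpha chains, ITGA2 and ITGA10 fell. ITGA2, the alpha chain of the main epithelial collagen receptor, read 447.1, 513.3 and 564.1 on the parental arrays and 190, 216.3 and 217.1 in the labelled clone. Every sample of the clone lay below every parental sample, and the log2 difference was -1.22 (SE 0.11, adjusted p = 9.68e-06). ITGA10, a collagen receptor chain known from cartilage, was dim and fell from 58.9 ± 13.5 to 15.3 ± 2.18 (SD, n = 3). ITGA1, which prefers basement membrane collagen, gave opposite readings from its tested probe sets: one rose from 25.0 ± 2.27 to 47.0 ± 10.7 and the other fell from 39.8 ± 10.6 to 18.1 ± 4.92, both called, so no direction is given for the gene. ITGA11, the fibrillar collagen receptor of fibroblasts, read at most 7.1 on any array and was not tested.

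Among the laminin-binding alpha chains, ITGA3 was lower and ITGA6 was not called. ITGA3, which pairs with beta1 to bind laminin-332, read 830.9, 824.6 and 863.7 in the parental samples and 235.6, 235.5 and 219.5 in the labelled clone. The groups were far apart relative to their spread, with a log2 difference of -1.80 (SE 0.086, adjusted p = 1.23e-07). ITGA6, which pairs with beta1 or beta4, read 1566 ± 171 and 1712 ± 150 with overlapping groups (adjusted p = 0.34), and its dimmer probe set was called lower, at 240.7 ± 16.3 against 164.3 ± 39.3. ITGA7, a muscle laminin receptor chain, read only 6.33 ± 1.31 and 12.2 ± 2.59 and was called higher (adjusted p = 0.016), a call that ended with replicate 2 of the labelled clone left out (adjusted p = 0.063) and with a pseudocount of 64 (adjusted p = 0.092), and that held in 12 of 14 alternatives (adjusted p from 0.0097 to 0.092).

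The alpha chains that bind the RGD sequence of fibronectin and vitronectin showed smaller differences. ITGAV, shared by the vitronectin and latent TGF-beta receptors, read 924.9, 1167.4 and 1073.1 in the parental samples and 1213, 1210.3 and 1369.7 in the labelled clone. The groups did not overlap, but the log2 difference of 0.26 (SE 0.11) was not called (adjusted p = 0.066), and it was called in 5 of 16 alternatives (adjusted p from 0.022 to 0.22). ITGA5, the alpha chain of the fibronectin receptor, fell from 898 ± 26.6 to 606 ± 78.5, a log2 difference of -0.56 (SE 0.11, adjusted p = 0.0014). ITGA8 read at most 8.8 on any array and was not tested.

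ITGA4 and ITGA9, the closely related alpha chains that bind VCAM1, fibronectin variants and tenascin, both rose. For ITGA4, known from leukocytes and from neural crest and melanoma cells, the parental arrays read 15.6, 18 and 16.8 and those of the labelled clone 414.9, 448.1 and 407.7. The log2 difference was 3.74 (SE 0.088, adjusted p = 1.21e-09), and all 3 other tested probe sets were also called higher. ITGA9 read 3.7, 11.6 and 7 in the parental samples and 115.3, 141.8 and 76.3 in the labelled clone. Its groups did not overlap, the samples of the clone were more scattered than those of ITGA4, and the log2 difference was 2.42 (SE 0.19, adjusted p = 4.56e-06), with the other tested probe set also higher. The median over both ITGA9 probe sets gave 1.501. Since ITGA4 is a leukocyte chain too, leukocyte markers were read beside it: PTPRC (CD45), which all nucleated blood cells carry, read at most 6.0 on any array and did not pass the filter.

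Of that leukocyte list 4 of the 8 genes were tested. LCP1, which tumour lines also express, was higher, CD14 and LAPTM5 were lower and CORO1A was not called, with summed signals of 854.3 to 917.1 in the parental samples and 1434.6 to 1547.1 in the labelled clone. The leukocyte alpha chains themselves were near background: ITGAM read 5.97 ± 0.757 and 6.03 ± 2.41, and ITGAL and ITGAX at most 6.2 and 7.5 on any array. ITGAE, the alpha chain of the E-cadherin receptor of mucosal lymphocytes, read far above background, at 1359 ± 17.2 and 1258 ± 34.0, and was not called (log2 difference -0.11, adjusted p = 0.28).

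Of the 6 tested beta chains, 3 were higher, 2 lower and 1 not called, so 83.3% were called beside 66.9% of all genes. The chain that was not called was ITGB1, with 3263, 3526.6 and 4061.8 in the parental samples and 3311.3, 3137.1 and 3552.6 in the labelled clone. The groups overlapped, and the log2 difference of -0.11 (SE 0.11, 95% interval -0.36 to 0.13) was not called (adjusted p = 0.39). Its probe sets did not give 1 answer: of the others, one fell from 1214 ± 29.7 to 663 ± 61.4 and another from 1384 ± 78.6 to 921 ± 68.3 (adjusted p = 4.61e-05 and 5.67e-04), and the remaining 2 tested ones were not called. Which ITGB1 transcripts each of them detects is not given in the sources used here.

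ITGB3 and ITGB8, which pair with alphaV, read between 5.7 and 20.5 in the parental samples and between 185.8 and 260.1 in the labelled clone. ITGB3, known from platelets, osteoclasts, endothelium and invasive melanoma, read 20.5, 16.9 and 12.3 against 194.6, 260.1 and 191.8. No parental sample approached the clone, and the log2 difference was 2.82 (SE 0.14, adjusted p = 1.61e-07), with 4 other probe sets called higher and 1 not called. The size depends on the probe set. The next brightest rose from 10.6 ± 1.67 to 78.3 ± 17.4, a log2 difference of 1.81, and the median over the 6 tested ones gave 0.65. ITGA2B, the platelet partner of ITGB3, read at most 10.5 on the probe set with its highest mean and was not tested. Of a platelet and endothelial list of 5 genes, 2 were tested and both were lower, with sums of 166.5 to 310.4 against 7.0 to 14.1.

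ITGB8, a receptor chain that activates latent TGF-beta, read 5.7, 8.4 and 7.5 in the parental samples and 191.9, 185.8 and 195.8 in the labelled clone. The labelled clone was tightly grouped, the log2 difference was 3.16 (SE 0.089, adjusted p = 3.56e-09), and the 3 other tested probe sets were also higher, though the median over all 4 gave 0.84. ITGB5, a vitronectin receptor chain of many cell types, rose by a smaller amount, from 1558 ± 72.9 to 2694 ± 162, a log2 difference of 0.78 (SE 0.092, adjusted p = 5.97e-05), and its 3 other probe sets were higher too. Without probe sets of the types prone to cross-hybridise the ITGB5 difference was 0.27 (adjusted p = 0.044, and 5.33e-07 to 0.044 over 16 alternatives).

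ITGB4, the partner of alpha6 in the hemidesmosomes of epithelia, moved the other way. Its signal was 206.4, 217.6 and 186.3 in the parental samples and 21.3, 21.2 and 26.1 in the labelled clone. All samples of the clone lay far below the parental samples, and the log2 difference was -2.50 (SE 0.099, adjusted p = 3.53e-08), with 2 other probe sets lower and 1 not called. The median over the 4 tested probe sets gave -0.82. All tested ITGB4 probe sets, and the only 1 of ITGA3, were of the types prone to cross-hybridise. Neither gene could be read without them. ITGB2, the common beta chain of leukocyte integrins, was dim and fell from 32.3 ± 10.2 to 2.03 ± 1.62, with both other probe sets lower. ITGB7 read at most 10.1 and was not tested, and the 4 probe sets that name ITGB6 also name other genes, so it was not read.

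**Figure D2:**
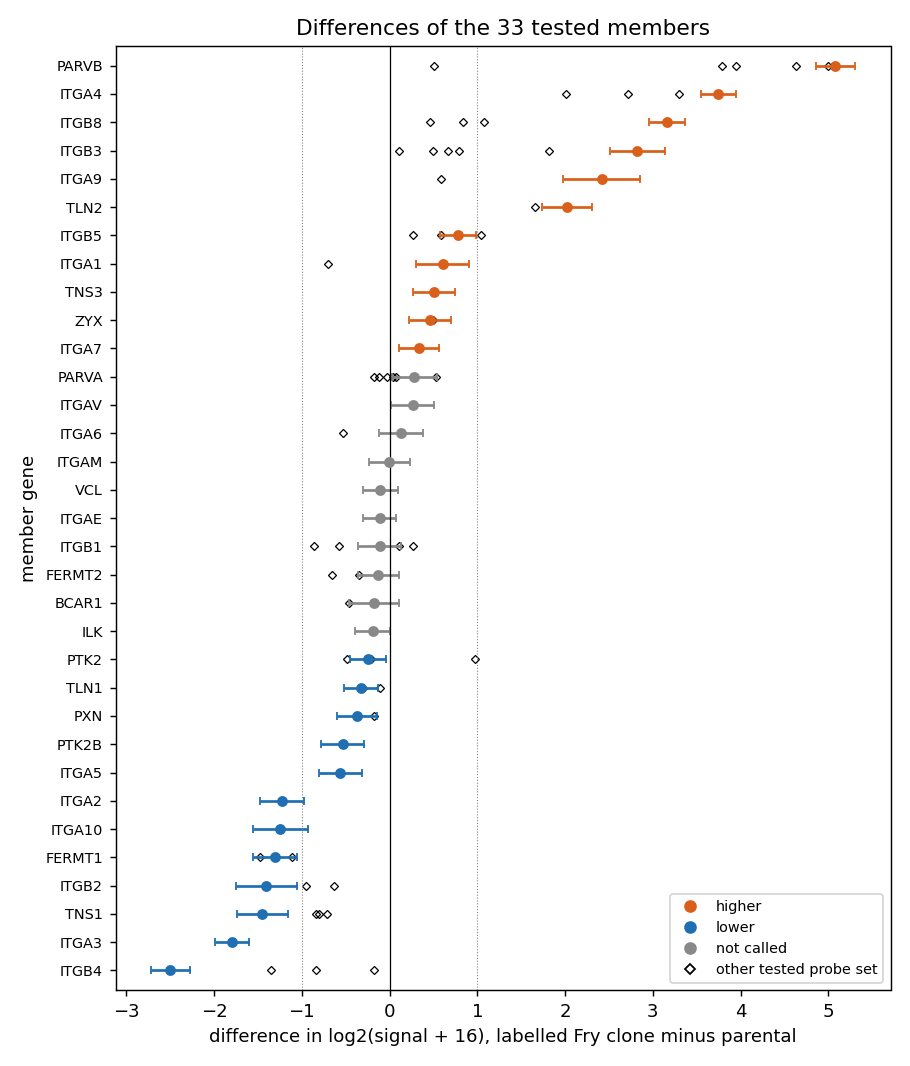
Difference between the samples labelled Fry clone and the parental samples for each tested member on the log2(signal + 16) scale, with the 95% interval from limma, in orange where called higher, blue where called lower and grey where not called, and open diamonds for the other tested probe sets of the gene. PARVB, ITGA4, ITGB8 and ITGB3 lie farthest to the right, at 5.08, 3.74, 3.16 and 2.82, and ITGB4 and ITGA3 farthest to the left, at -2.50 and -1.80.

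Read as heterodimers at a signal threshold of 100, the set of possible laminin and RGD receptors differed between the groups. A pair was taken as present in a group where both transcripts read at least 100 on each of its 3 arrays, which describes RNA and not receptors at the surface. Of 22 known pairs whose chains are both members, 15 had both chains measured by a tested probe set. Pairs present in both groups numbered 6, namely beta1 with alpha2, alpha3, alpha5, alpha6 and alphaV, and alphaV with beta5. The alpha6-beta4 pair was present in the parental samples alone, and alpha4-beta1, alphaV-beta3 and alphaV-beta8 in the labelled clone alone, which gave 7 pairs in the parental samples and 9 in the clone.

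The change in pairs came from the chain that is not shared. ITGB1 read at least 3137.1 and ITGAV at least 924.9 on every array, so the new pairs followed ITGA4, ITGB3 and ITGB8, and the lost pair followed ITGB4 with ITGA6 at 1400.3 or more throughout. The alpha9-beta1 pair missed the threshold on 1 array, where ITGA9 read 76.3, and was counted as present without it or with a threshold of 50. With a threshold of 200 each group had 6 pairs, since ITGA2, ITGB3 and ITGB8 then missed it in the labelled clone and ITGB4 in the parental samples. The laminin and RGD pairs present were then the same in both groups. What still differed was alpha2-beta1, in the parental samples alone, and alpha4-beta1, in the labelled clone alone. These values are a description, and no test was made of the number of pairs.

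**Figure D3:**
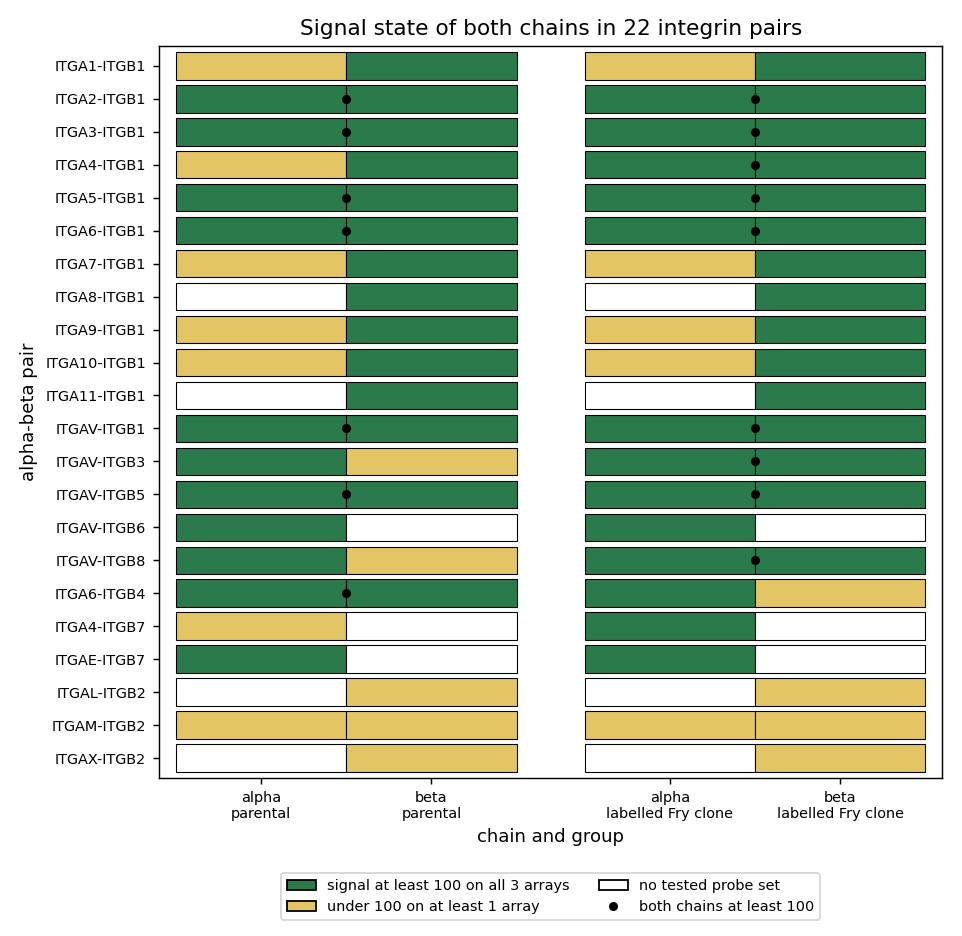
State of the alpha and beta transcripts of 22 integrin pairs in the parental samples (left) and the samples labelled Fry clone (right), green where all 3 arrays read at least 100, yellow where at least 1 read less and white where no probe set was tested, with a dot where both chains are green. Dots stand beside 7 pairs on the left and 9 on the right, with ITGA6-ITGB4 on the left alone and ITGA4-ITGB1, ITGAV-ITGB3 and ITGAV-ITGB8 on the right alone.

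The adaptors held the largest difference of all members. PARVB, beta-parvin, which joins integrin-linked kinase to actin, read 0.3, 1.9 and 2.4 in the parental samples and 600.1, 611.4 and 522 in the labelled clone. The parental signal was not above background, the log2 difference was 5.08 (SE 0.10, adjusted p = 4.26e-10), and the fold was at least 168 against the control level, or at least 51.9 against the array median. All 5 other PARVB probe sets were called higher. Its paralog PARVA read 481 ± 62.9 and 586 ± 42.8, and its log2 difference of 0.28 (SE 0.11) was not called (adjusted p = 0.054). Of the other PARVA probe sets, 1 was called higher, from 273 ± 25.2 to 402 ± 43.3 (adjusted p = 0.0022), and 5 were not called.

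The kinase at the centre of that complex, ILK, read 1996 ± 18.0 and 1745 ± 98.0, a log2 difference of -0.19 that was not called (adjusted p = 0.081). In both genes the groups did not overlap, and ILK was called in 3 and PARVA in 5 of 16 alternatives (adjusted p from 0.019 to 0.23 and from 0.012 to 0.71), of which the fit with the replicate number as a block gave PARVA 0.029. LIMS1, which encodes PINCH, read at most 6.3 on the probe sets that name it alone and was not tested, and 2 more name other genes as well.

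The talins went in opposite directions. TLN2, the less widely expressed paralog, read 48.3, 50.4 and 38.7 in the parental samples and 246.5, 197.4 and 261.1 in the labelled clone. No samples overlapped, and the log2 difference was 2.02 (SE 0.13, adjusted p = 7.82e-07), with the other tested probe set also higher. TLN1, the main talin of most cells, fell from 1167 ± 56.9 to 926 ± 19.9, a log2 difference of -0.33 (SE 0.087, adjusted p = 0.0088). Vinculin (VCL), which binds stretched talin, read 1982 ± 65.5 and 1841 ± 80.9 and was not called.

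The kindlins act with talin on the beta chain tail, and of those among the members 1 was lower and 1 not called. FERMT1, the epithelial kindlin, read 433.8, 421.2 and 522.6 in the parental samples and 158.8, 187.9 and 180 in the labelled clone. Its groups did not overlap, and the log2 difference was -1.31 (SE 0.11, adjusted p = 6.91e-06), with both other tested probe sets lower. FERMT2, the widely expressed kindlin, read 1924 ± 115 and 1762 ± 173 and was not called, although both of its dimmer probe sets were called lower. FERMT3, the blood cell kindlin and no member of the 40, read 10.9 ± 4.36 and 6.93 ± 2.69 and was not called.

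Kinases and scaffolds that signal from adhesions were called lower in 3 of 4 cases, beside 32.9% of all genes, and 1 of these calls, that of PTK2, did not hold in several alternatives. PXN (paxillin) fell from 1385 ± 56.3 to 1068 ± 110, a log2 difference of -0.37. PTK2B, the focal adhesion kinase paralog PYK2, was dim and fell from 19.2 ± 1.25 to 8.47 ± 3.15. PTK2, focal adhesion kinase itself, fell from 1616 ± 113 to 1358 ± 32.2, a log2 difference of -0.25 (SE 0.091, adjusted p = 0.039). The PTK2 call ended with a pseudocount of 1 (adjusted p = 0.059) and when parental replicate 2 or 3 or any 1 sample of the labelled clone was left out (adjusted p = 0.058 to 0.11, and 0.0081 to 0.11 over 16 alternatives). With the median over its 4 tested probe sets PTK2 was called higher instead, at 0.24 (adjusted p = 0.024). Its second brightest probe set was called lower, from 139.9 ± 1.05 to 95.4 ± 5.41 (adjusted p = 8.63e-04). A much dimmer one was called higher, from 22.1 ± 2.63 to 58.6 ± 5.83, and the remaining one was not called. BCAR1, p130Cas, read 34.8 ± 3.06 and 29.3 ± 7.54 and was not called, while its other probe set was called lower, at 19.3 ± 1.03 against 9.77 ± 3.94 (adjusted p = 0.0066), and the gene was called in 2 of 16 alternatives (adjusted p from 0.011 to 0.59).

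The tension-responsive and tensin genes among the members changed in both directions. ZYX (zyxin), which repairs strained actin fibres, rose from 571 ± 65.2 to 787 ± 34.1, a log2 difference of 0.46 (SE 0.11, adjusted p = 0.0041). TNS3, a tensin of focal adhesions, rose from 715 ± 87.4 to 1017 ± 31.8, a log2 difference of 0.50 (SE 0.11, adjusted p = 0.0026). TNS1, a tensin of fibrillar adhesions, fell from 31.9 ± 7.82 to 1.40 ± 1.11, not above background, which is at least 8.87-fold lower against the control level or at least 2.88-fold against the array median, and 3 other probe sets were lower.

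Over all probe sets the picture was as mixed as over genes. The 40 genes had 118 probe sets that name them alone, of which 88 were tested: 34 were higher, 31 lower and 23 not called. Of all 32768 probe sets tested, 62.4% were called, 30.2% as higher and 32.2% as lower. Among the 23 members with several tested probe sets, ITGA1 and PTK2 were the 2 with probe sets called in both directions.

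**Figure D4:**
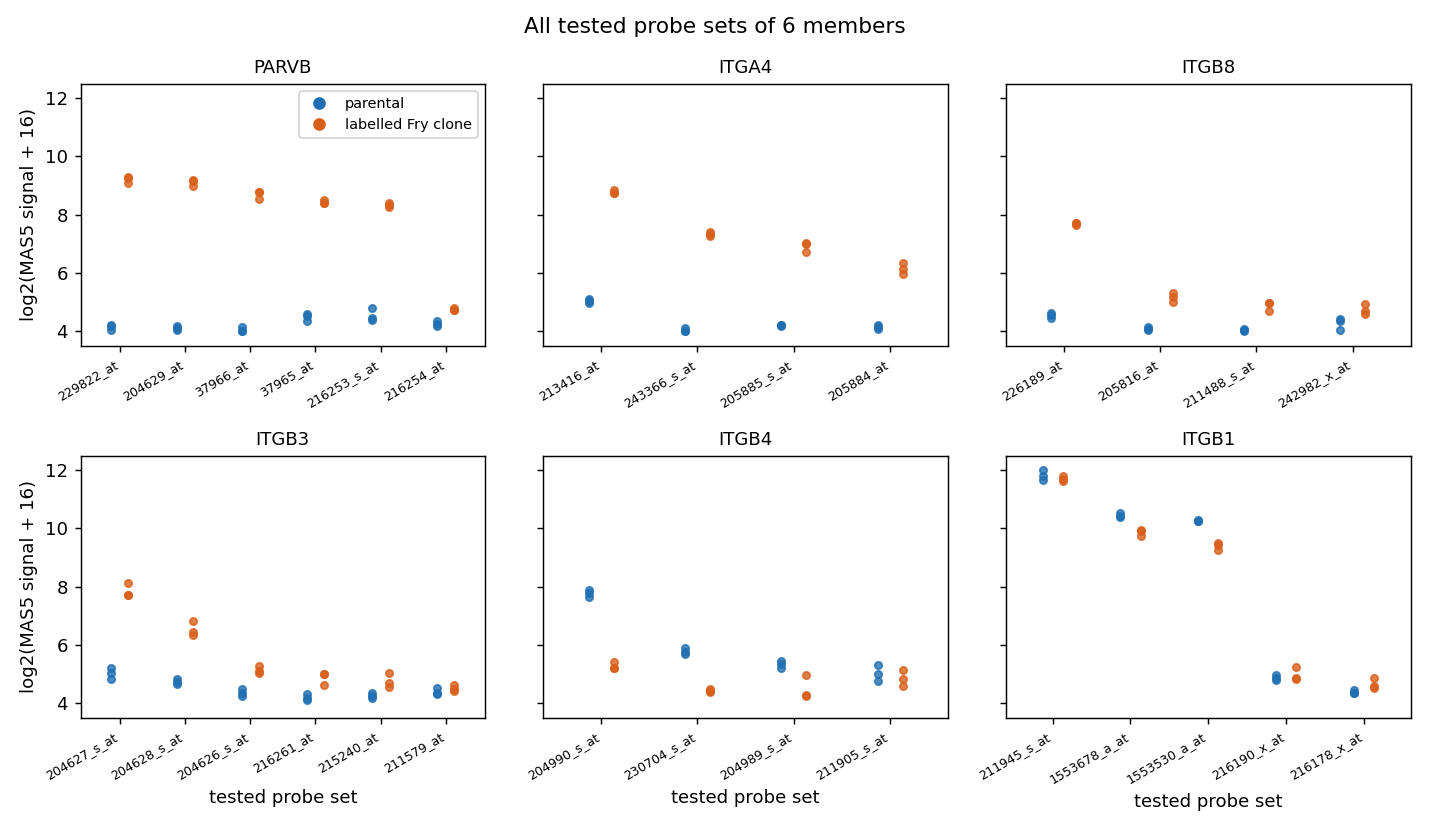
Signal as log2(signal + 16) on each array for every tested probe set of PARVB, ITGA4, ITGB8, ITGB3, ITGB4 and ITGB1, with the 3 parental samples in blue and the 3 samples labelled Fry clone in orange, and probe sets ordered by mean. The groups lie apart on all 6 PARVB and all 4 ITGA4 probe sets, while for ITGB1 they overlap on the left-most probe set and lie apart on the next 2.

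Other genes of the same adhesion complexes were read from a list of 48, of which 39 were tested. These were split in both directions, since 13 were higher, 8 lower and 18 not called, so 53.8% were called beside the 66.9% of all genes, and the difference in share was not tested. The largest rises were in ARHGEF6 (alpha-PIX, which links parvin to Rac), from 45.1 ± 14.8 to 610 ± 129, in FBLIM1 (migfilin, a partner of kindlin and filamin), from 93.8 ± 9.90 to 698 ± 64.7, and in ELMO1 (part of a Rac activator), from 1.57 ± 1.37 to 82.3 ± 13.05. The largest falls were in TNS4, the tensin that lacks an actin-binding region, from 169 ± 70.7 to 1.63 ± 0.764, in ITGBL1, a secreted integrin-like protein, from 89.7 ± 8.68 to 12.4 ± 2.902, and in TNS2, from 152 ± 11.4 to 87.2 ± 10.2. TNS1, TNS2 and TNS4 were thus lower and TNS3 was higher.

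The ligands that integrins bind also differed. Of 36 ligand genes 26 were tested, with 9 higher, 11 lower and 6 not called, and 15 (57.7%) differed by at least 1 on the log2 scale beside 23.0% of all genes. The median size of the log2 difference was 1.51 over the ligands. SPP1 (osteopontin, bound by alpha4-beta1, alpha9-beta1 and alphaV-beta3) rose from 3.63 ± 1.88 to 1106 ± 125. COL1A2, a chain of type I collagen, rose from 39.4 ± 3.46 to 831 ± 48.4, and TNC (tenascin C, bound by alpha9-beta1 and alphaV-beta3) from 255 ± 11.9 to 1999 ± 102. COL1A1, the other chain of type I collagen, went the other way and fell from 131 ± 22.7 to 27.5 ± 3.02. EDIL3, a secreted RGD protein bound by alphaV-beta3, fell from 1900 ± 283 to 5.27 ± 2.54. LAMB3, the beta chain of laminin-332 that alpha3-beta1 and alpha6-beta4 bind, fell from 863 ± 38.8 to 69.2 ± 15.9, and ICAM2, a ligand of leukocyte beta2 integrins, from 121 ± 20.8 to 2.27 ± 3.15. VCAM1, the cellular ligand of alpha4-beta1, read at most 11.5 on the probe set with its highest mean and was not tested, and FN1 (fibronectin) rose from 2071 ± 131 to 2569 ± 130. Of a smooth muscle and fibroblast list of 5 genes, 4 were tested, 2 higher and 1 lower, with sums of 178.7 to 204.6 against 214.6 to 263.5.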

How the data were processed

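The deposited values are signal intensities of a 1-colour Affymetrix array. The submitters' processing notes name MAS5 as the tool of the authors, and the 2% trimmed mean was the same on all arrays. Per the labels, 40 ng of total RNA was amplified. MAS5 takes mismatch signal off each probe pair, so ratios near background are unstable. Signals were transformed to log2(signal + 16), which understates changes of dim genes. Of 54613 non-control probe sets, 32768 with a mean at or above the 40th percentile (signal 5.62) were fitted with limma 3.58.1 (lmFit, eBayes; R 4.3.3) across the 6 arrays, with Benjamini-Hochberg adjustment over all of them. A gene was represented by its brightest tested probe set, out of those that GEO's platform annotation assigns to 1 gene. Values are mean ± SD over 3 arrays on the linear scale, and the number of arrays limits the precision. A fold bound sets the brighter group's mean, taken over log2 values, against the highest of 27 unspiked controls on each dim array, or the dim probe set's own signal where that was higher.

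All 6 values were given for members that were called, did not overlap, differed by at least 1 and averaged at least 100 in 1 group, and always for ITGB1 and ITGAV. Of the lists of other complex genes and of ligands, up to 3 rises and 3 falls were named. FN1, VCAM1, COL1A1, FERMT3, ITGA2B and the marker genes other than SOX10, S100B, KRT19 and PTPRC were named after their values were seen. The members and lists were chosen with earlier results of these data known. When the comparison was simulated with 200 altered probe sets among 32768, 73% of the changes of size 1 and 93% of those of size 2 were called. In the data 62.4% of the tested probe sets were called, which sets a looser cutoff on the unadjusted p-value. The simulated shares therefore do not give the recovery of this comparison. Plots were made in matplotlib 3.10.9 (Python 3.11.15).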

Additional observations from a re-analysis of the deposited data

How the results depend on the processing

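Over 16 alternatives, 482 of 516 member values kept their direction and their side of the threshold, 18 gained a call, 8 lost one and 8 turned, and 22 of the 33 members held call and direction in all of them. The number of members called lay between 20 (without probe sets prone to cross-hybridise) and 26 (median of probe sets, or a mean-variance trend), and between 21 and 23 with 1 sample left out. Genes called numbered 7293 to 9454. Values turned for ITGAM, at -0.00091 in the report, with a pseudocount of 64 (0.00086) and with quantile normalization (0.019). They also turned in some of the fits with 1 sample left out, over which ITGAM ran from -0.030 to 0.084. With the median over probe sets they turned for ITGA1 (-0.049), ITGA6 (-0.20) and PTK2 (0.24, called), and ITGB1 was then called lower (-0.86), as it was without probe sets prone to cross-hybridise (-0.58). The cause was not tested. With the replicate number as a block, 24 members and 9162 genes were called. Same-numbered samples deviated together weakly (r = 0.070, 0.075 and 0.19), so the numbers were not taken as a pairing. ITGAM, ITGAL, ITGAX, ITGA8, ITGA11 and ITGB7 read below the array median on all 6 arrays, as did the probe sets that name LIMS1 alone. Signal over background limits what can be read of these genes.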
